A study of Mus musculus with 11 samples.

Results

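The 10 genes described here encode proteins that astrocytes secrete and that promote or tune the formation of synapses: the thrombospondins Thbs1, Thbs2, Thbs3 and Thbs4, the matricellular proteins Sparc and Sparcl1, the glypicans Gpc4, Gpc5 and Gpc6, and the bone morphogenetic protein antagonist Chrdl1. They were chosen by name for their known role, but with earlier results of these data known. All 10 were among the 24421 genes listed in each sample and among the 13875 genes with enough reads to be tested. The question was whether the levels of their RNA differ between astrocytes of 4 brain regions.

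Astrocytes were sorted by fluorescence from olfactory bulb (OB, 3 samples), hippocampus (HC, 3 samples), cortex (CX, 2 samples) and brainstem (BS, 3 samples). All 4 groups came from Aldh1l1-eGFP mice on a C57BL/6 background at 16 weeks of age, of both sexes, which carry a bacterial artificial chromosome with eGFP under the control of Aldh1l1, a folate enzyme gene used as a general astrocyte marker. The sort therefore collects cells in which that transgene is active. No treatment is named. The labels do not say whether the samples of a region came from separate animals, so that p-values measure the spread between these samples, which may be technical. RNA was measured by paired-end RNA-seq of libraries depleted of ribosomal RNA.

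Thrombospondins are large matrix glycoproteins that act on neurons through the calcium channel subunit Cacna2d1 and induce excitatory synapses that are structurally complete. Sparcl1, also called hevin, bridges neurexins and neuroligins across the synaptic cleft, and Sparc counteracts it. Gpc4 and Gpc6 are heparan sulfate proteoglycans that draw Gria1-containing AMPA receptors to the synapse, whereas Chrdl1 promotes the switch to Gria2-containing receptors as synapses mature.

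The deposited value of a gene is its read count divided by 1 size factor per sample, here called the normalized value. Reads on genes numbered 2830746 to 14151670 per sample, with a median of 5552215, and 1 read was worth a value between 0.367 and 2.10. The 10 astrocyte markers checked were detected in every sample, and their summed value was 298200 to 355000 in OB, 306800 to 520000 in HC, 619200 to 695700 in CX and 116300 to 330900 in BS. Slc1a2 alone made up the larger part of this sum in each sample. Markers of other cells were present as well: choroid plexus markers reached 4.17% of all values in a BS sample, and oligodendrocyte markers reached 1.51%. In sorted bulk RNA, fewer cells of a type cannot be told apart from less RNA per cell. The labels give no batch.

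**Figure D1:**
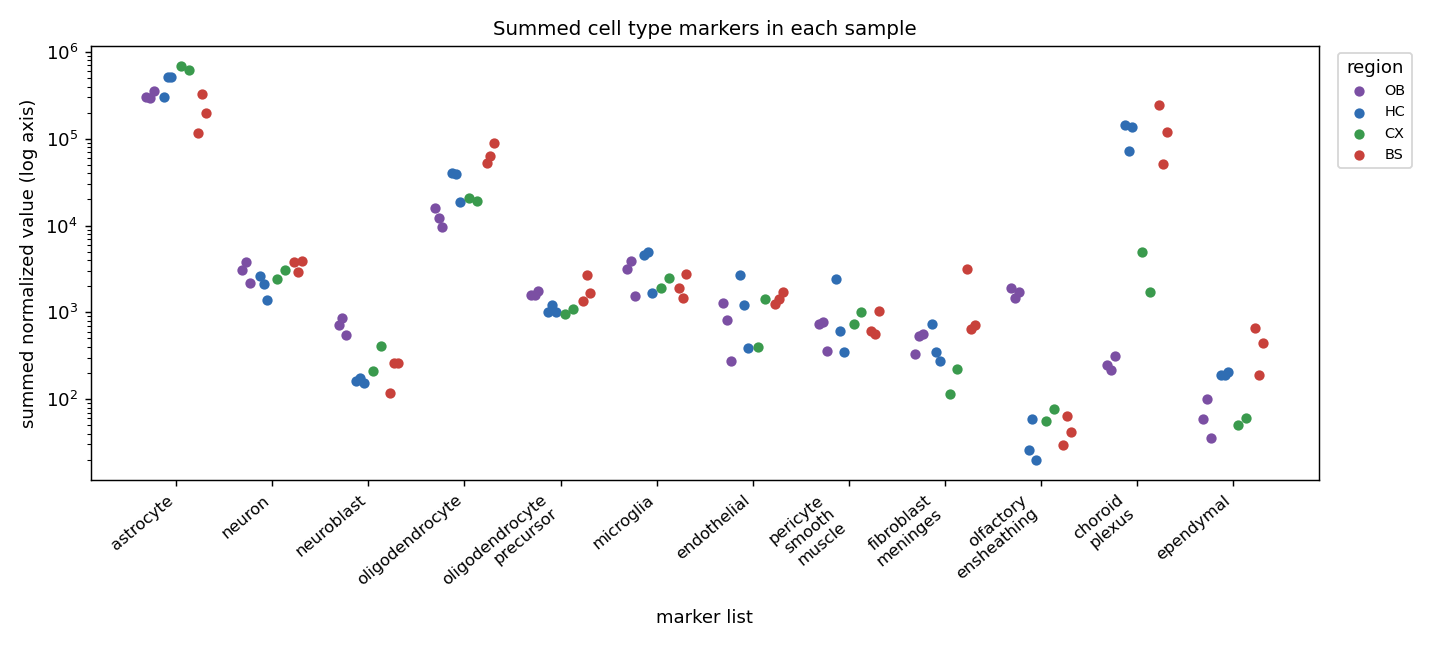
Summed normalized value of each cell type marker list in each sample (points, coloured by region, log axis). Choroid plexus markers separate HC and BS from OB and CX, oligodendrocyte markers are highest in BS (52350 to 90100), and olfactory ensheathing markers are highest in OB (1469 to 1901).

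Of the 10 genes, 6 differed among the 4 regions in limma's moderated F test at an adjusted p under 0.05, namely Thbs2, Thbs4, Sparc, Gpc4, Gpc6 and Chrdl1, whereas 16.5% of all genes tested did. The largest difference between region means of log2(value + 1) had a median of 2.03 over the 10 genes, compared with 0.836 over all genes tested. Thbs1, Thbs3, Sparcl1 and Gpc5 did not pass the test. Because the 10 genes were chosen with earlier results of these data known, their comparison with all genes is a description only.

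**Figure D2:**
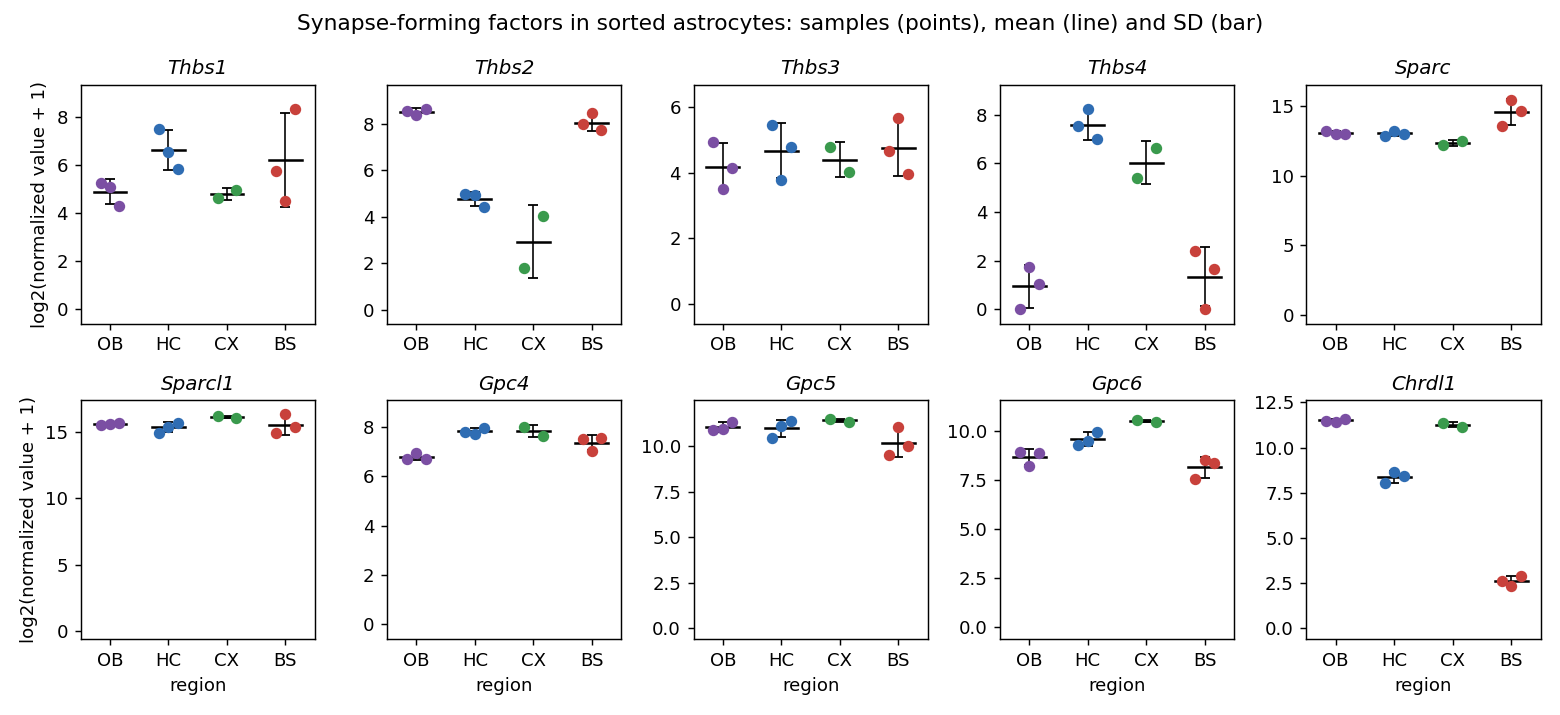
Normalized values of the 10 synapse-forming factors, as log2(value + 1) on the vertical axis, in each sample (points) of OB, HC, CX and BS, with the mean (line) and SD (bar) of each region. Chrdl1 falls from 2903 in OB to 5.19 in BS, Thbs2 is high in OB and BS, and Thbs4 is high in HC and CX.

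The promoters of Thbs2 and Thbs4 are shown first because these related genes had opposite regional patterns, and those of Sparc and Gpc4 because these genes also differed among regions. Each window runs from 250 bases before to 50 bases after the start of transcription in RefSeq (GRCm38.p6), on the gene's own strand, which is the minus strand for all 4. The windows are chr17:14694213-14694512 for Thbs2, chr13:92794769-92795068 for Thbs4, chr11:55420031-55420330 for Sparc and chrX:52164874-52165173 for Gpc4, and the RefSeq starts of Sparc and Gpc4 lie inside the GENCODE gene spans. Capitals mark matches to the motifs searched on both strands, which were TTGGC and its reverse complement GCCAA, bound by nuclear factor I (NFI) proteins, the palindrome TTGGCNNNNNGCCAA made of both, the GC box GGGCGG, the TATA box TATAAA and the E-box CACGTG, with the reverse complements of these. A palindrome match also counts as 2 matches of the short motif.
Thbs2: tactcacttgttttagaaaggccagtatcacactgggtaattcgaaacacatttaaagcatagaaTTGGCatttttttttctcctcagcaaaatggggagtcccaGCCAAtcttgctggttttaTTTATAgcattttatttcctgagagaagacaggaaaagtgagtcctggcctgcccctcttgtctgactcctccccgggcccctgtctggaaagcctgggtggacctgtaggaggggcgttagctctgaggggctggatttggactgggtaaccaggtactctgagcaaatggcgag
Thbs4: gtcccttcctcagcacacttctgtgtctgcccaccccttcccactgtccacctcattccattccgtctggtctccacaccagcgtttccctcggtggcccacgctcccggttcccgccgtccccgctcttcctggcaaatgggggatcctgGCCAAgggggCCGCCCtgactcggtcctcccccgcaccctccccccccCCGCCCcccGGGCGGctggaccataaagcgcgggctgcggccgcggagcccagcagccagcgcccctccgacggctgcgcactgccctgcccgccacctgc
Sparc: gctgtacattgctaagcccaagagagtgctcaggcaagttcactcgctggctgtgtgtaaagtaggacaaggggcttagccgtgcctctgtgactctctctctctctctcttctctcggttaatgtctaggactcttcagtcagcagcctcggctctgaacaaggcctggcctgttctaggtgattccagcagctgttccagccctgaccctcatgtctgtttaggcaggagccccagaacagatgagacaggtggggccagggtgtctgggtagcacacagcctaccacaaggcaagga
Gpc4: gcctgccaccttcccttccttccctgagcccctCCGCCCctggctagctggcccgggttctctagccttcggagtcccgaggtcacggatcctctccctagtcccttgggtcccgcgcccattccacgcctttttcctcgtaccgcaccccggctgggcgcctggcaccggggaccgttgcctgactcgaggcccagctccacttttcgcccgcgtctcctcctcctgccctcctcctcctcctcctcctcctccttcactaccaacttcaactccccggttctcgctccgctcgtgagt

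The Thbs2 window held TTGGC and GCCAA, with first bases 185 and 145 bases before the start, and a TATA-like TTTATA on the other strand 126 bases before it. The Thbs4 window held 1 GCCAA at 99 bases before the start and 3 GC boxes, and its GC content was 72.0% against 48.3% for Thbs2. Gpc4 had 1 GC box, and the Sparc window had no match. Of all 32851 promoter windows in the RefSeq table, 46.7% held TTGGC or GCCAA, 35.7% a GC box, 13.6% a TATA box, 7.15% the E-box and 0.0365% the NFI palindrome, so that the short motifs are common in any such window. Windows for Thbs3 and Gpc5 were in the table too, and 6 of the 10 genes were matched. Windows for Thbs1, Sparcl1, Gpc6 and Chrdl1 were not used here.

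Chrdl1 (chrX:143285674-143394262, minus strand, GENCODE on GRCm38), a secreted antagonist of bone morphogenetic proteins, had the widest regional range of the 10 genes. Its normalized values were 2879, 2719 and 3111 in the OB samples and 2618 and 2277 in the CX samples. In HC they were 262, 406 and 346, and in BS 5.26, 4.01 and 6.31. No regions overlapped, so that the order was OB, CX, HC and BS, each sample of a region lying above each sample of the next. The BS values rest on 10 reads in all (5, 2 and 3), for which the exact 95% Poisson interval is 4.795 to 18.39 reads.

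The region means of Chrdl1 were 2903 ± 197 (SD, n = 3) in OB, 2448 ± 241 (SD, n = 2) in CX, 338 ± 71.9 (SD, n = 3) in HC and 5.19 ± 1.16 (SD, n = 3) in BS. The OB mean was 559-fold the BS mean, with a counting interval of 304 to 1166 that covers counting error of the BS reads only. HC was 65.1-fold above BS, with an interval of 35.4 to 136. In limma the adjusted p was 3.065e-12 over the 4 regions and 2.487e-05 for CX against HC, with a difference of 2.87 ± 0.23 (SE) in log2(value + 1). OB and CX, the neighbours at the top of the order, differed by 0.25 ± 0.23 (SE) on that scale, which did not pass the test (limma, adjusted p = 0.688) although their samples did not overlap.

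Summed astrocyte markers were 116300, 330900 and 198100 in BS replicates 1, 2 and 3, and 298200 to 355000 in OB. Slc1a2 alone was at 61760, 208900 and 113300 in these BS samples. Of the 10 astrocyte markers, 2 were lower in every BS sample than in all other samples. Aqp4 and Aldoc had higher means in BS than in OB (14010 against 12590, and 23670 against 21420), and the other astrocyte markers had lower ones. Summed choroid plexus markers were high in the regions where Chrdl1 was low: their sum was 71720 to 145000 in HC and 51540 to 243200 in BS, against 1733 to 5008 in CX and 219 to 310 in OB, where Folr1 was at 0. Of these choroid plexus markers, 7 were lower in every OB sample than in all other samples. The exception was Aqp1, with means of 169 in OB, 167 in HC, 4.32 in CX and 235 in BS. All 8 choroid plexus markers had reads, all 8 differed among regions, and the part of either list in the Chrdl1 result was not tested. The genes whose log2(value + 1) was most like that of Chrdl1 over the 11 samples were an entry whose symbol the files give as a date (11-Sep, Pearson r = 0.987), Adam23 (r = 0.983) and 9630001P10Rik (r = 0.977). Adam23, which encodes a synaptic adhesion protein, had region means of 2631 in OB, 1720 in CX, 966 in HC and 183 in BS.

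Among the thrombospondins, Thbs2 and Thbs4 took opposite places. Thbs2 (chr17:14665500-14694235, minus strand) had values of 372, 328 and 399 in OB and 249, 351 and 208 in BS. In HC it was at 30.0, 29.2 and 20.2, and in CX at 2.51 and 15.3. All OB and BS samples lay above all HC and CX samples, and OB and BS overlapped each other.

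The mean of Thbs2 was 366 ± 35.9 (SD, n = 3) in OB, 13.8-fold that of HC (26.5 ± 5.46, SD, n = 3) and 41.1-fold that of CX (8.92 ± 9.07, SD, n = 2). The CX mean rests on 12 reads (2 and 10), which gives the OB to CX fold a counting interval of 23.5 to 79.4. In limma, OB exceeded HC by 3.76 ± 0.45 (SE) in log2(value + 1) (adjusted p = 8.29e-05) and CX by 5.595 ± 0.50 (adjusted p = 1.395e-05). BS exceeded HC by 3.29 ± 0.45 (adjusted p = 0.0003986) and CX by 5.12 ± 0.50 (adjusted p = 1.238e-05). Neither neighbouring pair within the high and low regions passed the test in limma, with adjusted p = 0.558 for OB against BS and 0.102 for HC against CX. HC against CX passed without CX replicate 2.

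Markers of olfactory ensheathing cells, the glia of the olfactory nerve, moved with OB and not with BS. The sum of the 4 such markers was 1469 to 1901 in OB and 29.4 to 64.1 in BS, while Thbs2 stood between 208 and 351. Fibroblast and meningeal markers, which include Dcn, summed to 639 to 3155 in BS and 329 to 564 in OB, against 272 to 728 in HC and 116 to 221 in CX. The part of either list in the Thbs2 result was not tested. The genes most like Thbs2 were Ero1l (r = 0.969), Ntrk3 (r = 0.957) and Thsd7a (r = 0.953) over the 11 samples. Ntrk3, the receptor for neurotrophin, had means of 581 in OB, 389 in BS, 78.4 in HC and 65.0 in CX.

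Thbs4 (chr13:92751590-92794818, minus strand) was at 185, 299.6 and 127 in HC and at 41.5 and 99.7 in CX. It was listed at 0, 2.37 and 1.077 in OB and at 4.21, 0 and 2.10 in BS, which is 5 reads in all for each of these regions. Each HC and CX sample lay above each OB and BS sample, and all HC samples lay above both CX samples. In the samples at 0, a count of 0 allows a value of up to 3.26 in OB replicate 1 and 6.01 in BS replicate 2.

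Thbs4 averaged 204 ± 87.9 (SD, n = 3) in HC, 70.6 ± 41.2 (SD, n = 2) in CX, 1.15 ± 1.19 (SD, n = 3) in OB and 2.10 ± 2.10 (SD, n = 3) in BS. The HC mean was 177-fold the OB mean (counting interval 76.04 to 546.5) and 96.9-fold the BS mean (41.5 to 298). By limma, HC exceeded OB by 6.65 ± 0.75 (SE) in log2(value + 1) (adjusted p = 4.647e-05) and BS by 6.25 ± 0.75 (adjusted p = 0.0001229). CX exceeded OB by 5.10 ± 0.84 (adjusted p = 0.002048) and BS by 4.69 ± 0.84 (adjusted p = 0.002024). The call of CX against OB was lost without CX replicate 2, where the difference was 4.47. The neighbours HC and CX did not pass the test (limma, adjusted p = 0.491), nor did BS and OB (0.798).

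The genes most like Thbs4 over the 11 samples were Neurod6 (r = 0.942), Prdm8 (r = 0.934) and Nrn1 (r = 0.933), of which Neurod6 encodes a transcription factor of forebrain excitatory neurons. Neurod6 had means of 56.2 in HC, 10.9 in CX, 0.180 in OB and 3.16 in BS. The neuronal marker Slc17a7, the vesicular glutamate transporter of such neurons, was at 219, 136 and 107 in HC, 143 and 218 in CX, 56.5, 163 and 61.95 in OB, and 21.0, 14.0 and 10.5 in BS. The summed neuronal list was 1385 to 2603 in HC, 2418 to 3096 in CX, 2188 to 3762 in OB and 2897 to 3932 in BS, with all 10 markers detected, and its part in the Thbs4 result was not tested.

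Thbs1 (chr2:118111876-118127133, plus strand), known to induce synapses in cultured neurons, varied widely within HC and BS. It was at 184, 94.1 and 56.9 in HC and at 53.6, 22.04 and 326 in BS. Lower values of 38.0, 33.2 and 18.9 were found in OB, and of 23.9 and 30.7 in CX. The HC samples lay above all OB and CX samples, whereas the BS samples overlapped those of each other region, and limma gave an adjusted p of 0.213 over the 4 regions. Without BS replicate 2 this became 0.0363, and DESeq2 gave 0.0163.

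The sum of pericyte and smooth muscle markers followed the order of Thbs1 within HC, BS and CX, although not every single marker did. Tagln and Kcnj8 did not follow it in HC, nor did Pdgfrb, Kcnj8, Abcc9, Acta2 and Tagln in BS. In CX, Pdgfrb, Tagln, Myh11 and Des were lower in the sample with the higher Thbs1 value, while Rgs5 was at 269 and 526. The summed pericyte and smooth muscle markers were 2395, 613 and 347 in the 3 HC samples, in the order of their Thbs1 values, with Myh11 at 593, 9.13 and 1.10. In BS they were 608, 557 and 1031, again in the order of Thbs1, and in CX 730 and 1021. In OB they were 731, 765 and 361, where Thbs1 was lowest in the same sample, replicate 3. All 8 markers of the list were detected, none of the 7 tested differed among regions, and their part in the Thbs1 values was not tested. Summed endothelial markers followed the order of Thbs1 within OB, HC and CX, but in BS they were 1245, 1438 and 1720. Of the single endothelial markers, Pecam1 and Kdr did not follow that order in OB. The part of the endothelial list was not tested either. An antisense long RNA, Gm29233, overlaps 208 bases of Thbs1 exon, and whether counting used strand is not given in the sources used here.

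Thbs3 (chr3:89215180-89226837, plus strand) was low everywhere, between 10.3 and 50.1 over the 11 samples. Its region means lay between 18.8 in OB and 29.7 in BS, all 4 regions overlapped, and limma gave an adjusted p of 0.883. The gene shares 318 bases of exon with Mtx1 on the opposite strand.

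Divided by exon length, the thrombospondins changed rank between regions. By region mean, Thbs2 had 52.3 per kb in OB and 38.5 per kb in BS, ahead of the other 3 in both. In HC and CX, Thbs4 led at 62.0 and 21.5 per kb. Thbs2 made up 81.2 to 89.2% of the summed value per kb of the family in the OB samples and 34.1 to 78.1% in the BS samples, but 1.60 to 5.38% in HC and CX samples. Thbs1 made up 5.66 to 61.6% in the BS samples and led the family in BS replicate 3. The share of Thbs4 was 56.4 to 80.3% in HC, 56.4 to 74.4% in CX and at most 2.52% in any OB or BS sample.

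**Figure D3:**
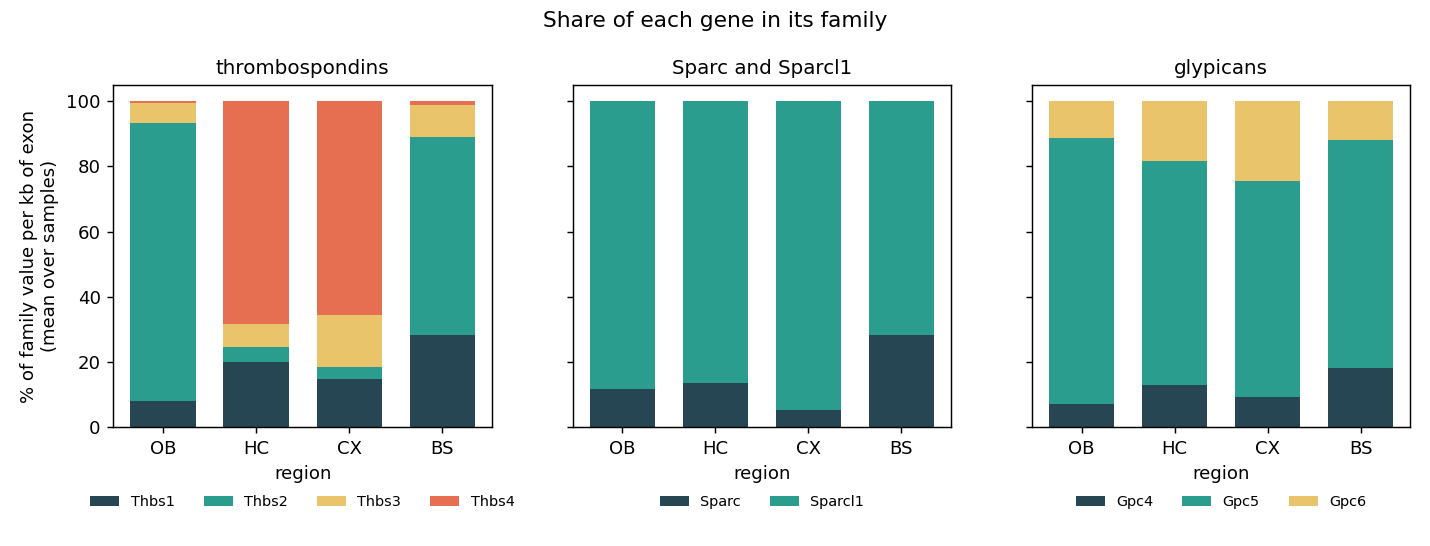
Share of each gene in the summed value per kb of exon of its family, as the mean over samples of a region in percent, for the thrombospondins, Sparc with Sparcl1, and the glypicans. Thbs2 holds 85.1% of the thrombospondin value in OB and 60.8% in BS, and Thbs4 68.4% in HC and 65.4% in CX, while Sparcl1 and Gpc5 lead their families in every region.

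Sparcl1 (chr5:104079111-104113733, minus strand) was the most abundant of the 10 genes per kb of exon in every region, at 14440 per kb in HC to 24150 per kb in CX. Its normalized values were 47034, 49720 and 53343 in OB, 31680, 42021 and 53571 in HC, and 74359 and 67492 in CX. The BS samples were at 30752, 84548 and 41714, a range that holds every sample of the other regions. No difference among regions passed the test (limma, adjusted p = 0.634), and this held in each of the 18 alternatives, with adjusted p between 0.131 and 0.877.

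Sparc (chr11:55394500-55423183, minus strand) was highest in BS. Its values were 12189, 44108 and 25787 in BS, all above the 9424, 7908 and 8240.4 of OB and the 7415, 9323 and 8140 of HC. The CX samples, at 4636 and 5691, were the lowest of all. OB and HC overlapped, and the BS samples differed among themselves more than those of any other region.

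The BS mean of Sparc was 27360 ± 16020 (SD, n = 3), 3.21-fold that of OB (8524 ± 797, SD, n = 3), 3.30-fold that of HC (8292 ± 963, SD, n = 3) and 5.30-fold that of CX (5164 ± 746, SD, n = 2). In limma the 4 regions differed with an adjusted p of 0.003053. BS exceeded OB by 1.499 ± 0.34 (SE) in log2(value + 1) (adjusted p = 0.008071), HC by 1.54 ± 0.34 (adjusted p = 0.0162) and CX by 2.23 ± 0.39 (adjusted p = 0.00158). The call of BS against HC was lost without HC replicate 3, without BS replicate 3, or in limma with no trend of variance on mean level. CX against HC (limma, adjusted p = 0.512) and against OB (0.387) did not pass the test, although the CX samples lay below all samples of both.

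Within BS, Sparc and Sparcl1 followed the astrocyte markers of the sample. Summed astrocyte markers were 116300, 330900 and 198100 in replicates 1, 2 and 3, and Sparc, Sparcl1 and Gpc5 were each lowest in replicate 1 and highest in replicate 2. Choroid plexus markers ran the other way, at 243200, 51540 and 118200, and fibroblast and meningeal markers were highest in replicate 1 at 3155. Oligodendrocyte markers, of which 7 of 8 differed among regions, were highest in BS at 52350 to 90100, against 9528 to 39950 elsewhere. The part of these lists in the Sparc result was not tested. Sparc made up 23.5 to 32.4% of the Sparc and Sparcl1 value per kb in the BS samples and 4.61 to 15.4% in the others, with no overlap.

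The genes most like Sparc were Lhfp (r = 0.954), B230323A14Rik (r = 0.938) and Kcnd2 (r = 0.935) over the 11 samples. Kcnd2, a potassium channel gene, had means of 771 in BS, 417 in OB, 298 in HC and 211 in CX.

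The glypicans were led by Gpc5 (chr14:115092215-116525179, plus strand), with 290 per kb of exon in BS to 611 per kb in CX. Gpc5 had values of 1876, 1953 and 2593 in OB, 1408, 2203 and 2641 in HC, 2841 and 2600.4 in CX, and 718, 2132 and 1021 in BS. The lowest samples were from BS, which overlapped OB and HC. Over the 4 regions the test in limma was not passed (adjusted p = 0.0852), and this became 0.001928 without BS replicate 2 and 0.0455 without HC replicate 1. CX exceeded BS by 1.23 ± 0.36 (SE) in log2(value + 1) (limma, adjusted p = 0.0391), a call lost in edgeR, with no filter on low genes, with no trend and in 7 of the 11 fits with a sample left out. A transcript on the opposite strand, Gm20713, overlaps 107 bases of Gpc5 exon.

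Gpc6 (chr14:116925315-117976544, plus strand) was highest in CX, at 1494 and 1419.8. It was at 622, 733 and 1008 in HC, 493, 294 and 479 in OB, and 187, 363 and 333 in BS. The order CX, HC, OB and BS showed no overlap except between OB and BS. The CX mean, 1457 ± 52.3 (SD, n = 2), was 4.95-fold the BS mean of 294 ± 93.9 (SD, n = 3).

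Over the 4 regions limma gave an adjusted p of 0.00022 for Gpc6. CX exceeded BS by 2.36 ± 0.30 (SE) in log2(value + 1) (adjusted p = 0.0001304) and OB by 1.82 ± 0.30 (adjusted p = 0.002001), and HC exceeded BS by 1.45 ± 0.27 (adjusted p = 0.004204), a call lost with no trend. None of the 3 neighbouring pairs in the order passed, with adjusted p in limma of 0.193 for CX against HC, 0.055 for HC against OB and 0.211 for OB against BS. HC against OB passed in DESeq2, with the replicate block, and without HC replicate 1, BS replicate 1 or BS replicate 2. Summed astrocyte markers were also highest in CX, and their lowest samples were from BS, which overlapped OB and HC. Of the 10 markers, 4 were higher in every CX sample and 2 lower in every BS sample than in all other samples. Aqp4 had its highest mean in BS, 14010 against 10910 in CX. Gfap had its lowest mean in CX, 1099 against 1455 in BS, 3506 in OB and 3673 in HC. Slc4a4 had higher means in OB (27090) and BS (23230) than in CX (19300). The part of these markers in the Gpc6 result was not tested. Genes most like Gpc6 over the 11 samples were Phactr3 (r = 0.957), Pou3f2 (r = 0.953) and Clip3 (r = 0.953), and Pou3f2, a neural transcription factor gene, had means of 414 in CX, 294 in HC, 214 in OB and 152 in BS.

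Gpc4 (chrX:52053021-52165252, minus strand) was lowest in OB, at 103, 122 and 104. It reached 221, 210.1 and 249 in HC, 256 and 200.85 in CX, and 182, 128 and 187 in BS. All OB samples lay below all other samples, and HC and CX overlapped. The HC mean of 227 ± 20.3 (SD, n = 3) was 2.07-fold and the CX mean of 229 ± 39.2 (SD, n = 2) 2.08-fold the OB mean of 109.8 ± 10.9 (SD, n = 3).

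Limma gave an adjusted p of 0.0125 for Gpc4 over the 4 regions, which rose to 0.0552 without OB replicate 1 or OB replicate 3. OB was lower than HC by 1.04 ± 0.23 (SE) in log2(value + 1) (adjusted p = 0.0092). Against CX it was lower by 1.05 ± 0.25 (adjusted p = 0.0251), a call lost without OB replicate 1, OB replicate 3 or either CX sample, or with no trend. The BS mean, 166 ± 32.7 (SD, n = 3), lay between those of HC and OB and passed the test against neither (limma, adjusted p = 0.33 and 0.107), although OB against BS passed without BS replicate 2. Idh2 (r = 0.954), Prelp (r = 0.946) and Maob (r = 0.932) had the patterns most like that of Gpc4 over the 11 samples. Prelp, a small matrix proteoglycan, had means of 279 in OB, 1979 in HC, 1564 in CX and 1077 in BS.

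Taken by pairs of regions, the 10 genes gave 22 calls in limma out of 60. CX against BS had the most with 6 of 10 genes, where 10.9% of all genes tested were called, followed by HC against BS with 5 (4.63% of all genes). OB differed from HC in 4 genes (7.11%) and from CX in 4 (4.91%). OB against BS gave 2 calls, Sparc and Chrdl1, although it had the most calls over all genes, 15.0%. HC and CX differed in Chrdl1 alone of the 10, where 1.23% of all genes were called. These comparisons share samples and were not compared with each other.

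**Figure D4:**
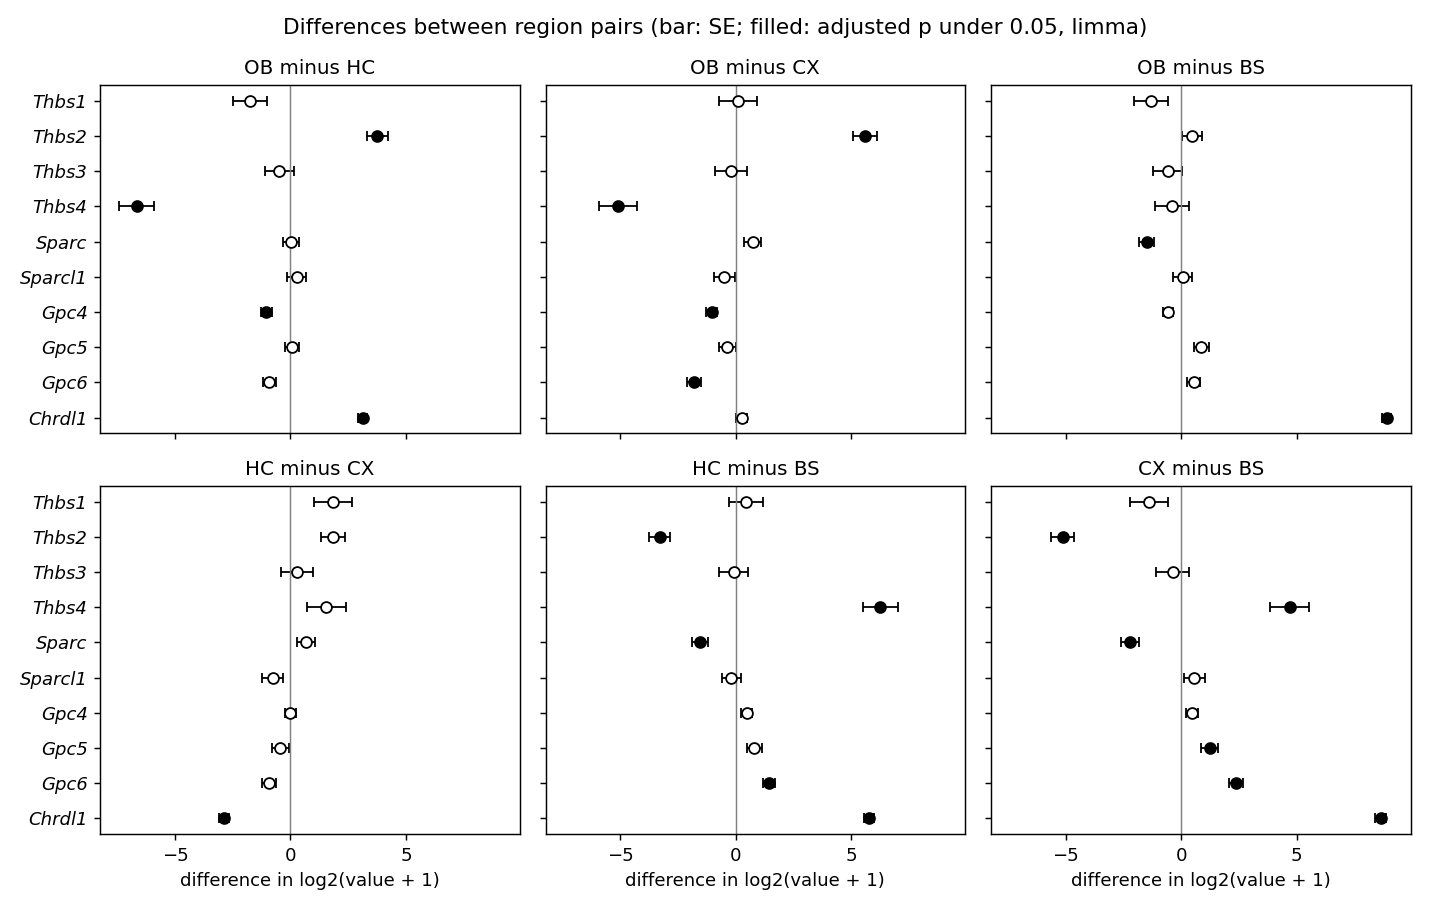
Difference in log2(value + 1) between each pair of regions for the 10 genes, as first minus second region on the horizontal axis, with its standard error (bar). Filled points passed limma's test at an adjusted p under 0.05, and the 22 filled points include Chrdl1 in all pairs but OB against CX and Thbs2 and Thbs4 with opposite signs in 4 pairs.

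When each region was compared with all samples outside it, as in the study, fewer of the genes were called. In OB it was Gpc4, lower by 0.87 ± 0.21 (SE) in log2(value + 1) (limma, adjusted p = 0.0292), where 4.58% of all genes were called. In BS the calls were Sparc, higher by 1.70 ± 0.33 (limma, adjusted p = 0.008627), and Chrdl1, lower by 7.66 ± 0.77 (adjusted p = 6.557e-05), where 5.42% of all genes were called. The Sparc call was lost without BS replicate 3, and the Gpc4 call with no trend, with the replicate block, and without any 1 of the OB samples, HC replicate 1 or HC replicate 2.

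None of the 10 genes was called in HC or CX against the others. There limma called 0.0% of all genes in HC (0 genes, with 789 at an unadjusted p under 0.05) and 0.0144% in CX (2 genes, with 1372 unadjusted). On recovered reads, edgeR called 0 genes in HC and DESeq2 93. For Thbs2, the difference of OB from the pooled samples was 2.98 ± 1.12 (SE) in log2(value + 1), a wider error than the 0.45 of OB against HC alone.

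The study's own thresholds were also applied in limma, namely p under 0.01 before adjustment, more than 1.5-fold change and at least 2 replicates with a value above 5. They marked Gpc4 in OB, where 8.04% of all genes passed, and Thbs4 in HC, where 1.28% did. In CX they marked Thbs2 and Gpc6 (2.77% of all genes), and in BS Sparc, Gpc5, Gpc6 and Chrdl1 (9.03%).

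Genes related to the 10 by family, by receptor or by function were counted in the same F test, in which 16.5% of all genes tested were called. These lists too were chosen with earlier results of these data known. Of 12 family relatives, 9 were tested and 4 differed among regions (44.4%): Gpc3, Spock1, Spock3 and Smoc1. Spock3, a proteoglycan of the Sparc family, had a mean of 316 ± 56.6 (SD, n = 3) in BS and 74.4 ± 22.5 (SD, n = 3) in OB (limma, adjusted p = 0.0155), the same highest region as Sparc. Smoc1, another relative of Sparc, was highest in OB at 199 ± 29.0 (SD, n = 3), and its other means lay between 71.9 and 92.2 (limma, adjusted p = 0.0291). Gpc3 was at 41.6 in BS, 23.8 in OB, 14.1 in HC and 2.93 in CX (limma, adjusted p = 0.0397), and Spock1 at 87.4 in OB and 181 to 259 in the other regions (limma, adjusted p = 0.0318). The CX mean of Gpc3 rests on 4 reads. Comp, Chrd and Chrdl2 had too few reads to be tested, and the Chrdl1 relative Chrdl2 had none in any sample.

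Of 31 receptors and partners through which the factors act, 29 were tested and 12 differed (41.4%). Gria1, the AMPA receptor subunit that glypicans recruit, had means of 3972 ± 34.4 (SD, n = 3) in OB, 2070 ± 1132 (SD, n = 3) in BS, 372 ± 62.0 (SD, n = 3) in HC and 288 ± 19.9 (SD, n = 2) in CX (limma, adjusted p = 1.798e-06). Gria2, the subunit linked to Chrdl1, ran from 2554 ± 341 (SD, n = 3) in OB to 421 ± 107 (SD, n = 3) in BS (limma, adjusted p = 4.183e-06). Its means were 1160 ± 218.5 (SD, n = 3) in HC and 954 ± 109.6 (SD, n = 2) in CX, whereas Chrdl1 was higher in CX than in HC. The glypican-binding adhesion gene Lrrtm4 was highest in OB at 84.7 ± 48.4 (SD, n = 3) and lowest in BS at 9.46 ± 10.03 (SD, n = 3; limma, adjusted p = 0.0397). Lrrtm3 was at 208 in OB and 18.9 to 26.3 elsewhere (limma, adjusted p = 0.002123). Cacna2d1, the thrombospondin receptor, had means of 119 to 235 and did not pass (limma, adjusted p = 0.118).

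Of 15 other secreted or matrix factors with a role at synapses, 13 were tested and 9 differed (69.2%). Ncan, the matrix proteoglycan neurocan, had means of 26210 in OB, 21120 in CX, 10030 in HC and 5052 in BS (limma, adjusted p = 0.0006605), the order seen for Chrdl1. Tnc, the matrix glycoprotein tenascin C, was at 116 to 126 in OB, HC and CX and at 12.2 ± 13.2 (SD, n = 3) in BS (limma, adjusted p = 0.0003898). Wnt7a, a secreted Wnt ligand, was highest in OB at 448 ± 49.2 (SD, n = 3) and lowest in HC at 101 ± 29.7 (SD, n = 3; limma, adjusted p = 0.0004883). Ptx3, a secreted pentraxin, had a mean of 18.5 in OB and was at 0 in all 3 BS samples (limma, adjusted p = 0.005583), where a count of 0 allows values of up to 3.15, 6.01 and 6.31.

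Of the 19 genes that build, trim or cut the heparan sulfate chains carried by glypicans, all 19 were tested and 6 differed (31.6%). Sulf1, an extracellular sulfatase that removes sulfate groups from these chains, had means of 880 ± 412 (SD, n = 3) in HC, 613 ± 220 (SD, n = 3) in BS, 334 ± 119.8 (SD, n = 3) in OB and 42.9 ± 8.63 (SD, n = 2) in CX (limma, adjusted p = 2.267e-05). Hs6st2, a sulfotransferase, was likewise lowest in CX at 31.5, with means of 68.3 in OB, 157 in HC and 185 in BS (limma, adjusted p = 0.0198). Ndst4 was at 0 in both CX samples and at 9.52 to 24.7 elsewhere (limma, adjusted p = 0.0372). Hs3st2 was at 17.6 in OB and 0.513 in HC (limma, adjusted p = 0.0379). The largest difference between region means in log2(value + 1) had a median of 1.54 for the family relatives, 1.24 for the receptors and partners, 1.27 for the other secreted factors and 1.48 for the heparan sulfate genes, all above the 0.836 of all genes tested and below the 2.03 of the 10 factors.

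**Figure D5:**
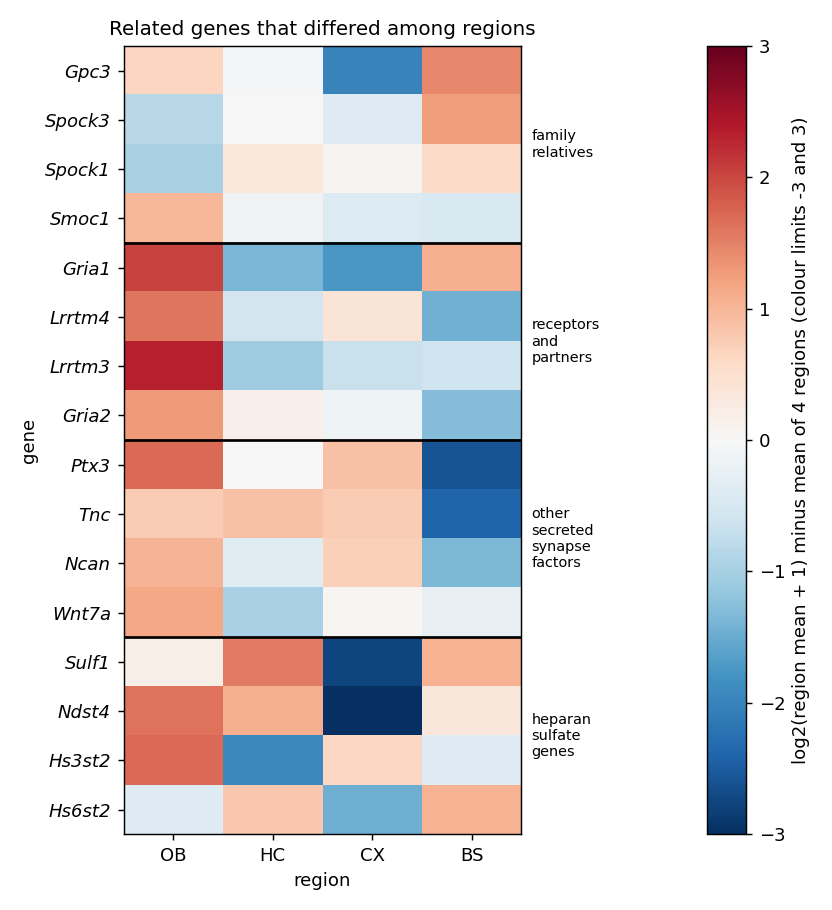
Region means of the 16 named related genes, as log2(region mean + 1) minus the mean over the 4 regions (colour, limits -3 and 3), grouped by list in rows and by region in columns. Gria1, Lrrtm3 and Wnt7a are highest in OB, Tnc and Ncan are lowest in BS, and Sulf1 and Ndst4 are lowest in CX.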

How the data were processed

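RNA-seq of 11 samples was analysed from 1 deposited file per sample. The authors mapped reads with STAR 2.5.0a to mm10 (GRCm38), counted them on UCSC transcripts and divided each sample's counts by a DESeq2 1.20.0 size factor, so that the deposited unit is a normalized signal. Values above 0 divided by the smallest step of their sample gave whole reads (tolerance 0.1) in 100% of cases. A floor of 3 reads corresponded to values of 1.10 to 6.31. Intervals and floors cover counting error only.

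Genes were filtered with filterByExpr of edgeR 4.0.16 on these reads, and limma 3.58.1 in R 4.3.3 was fitted to log2(value + 1) with a mean-variance trend over all genes, two-sided, with a mean for each region or with 1 region against the others pooled. Fold changes on this scale are understated for low genes. Adjusted p-values follow Benjamini and Hochberg over all 13875 genes, and calls were made under 0.05. Folds are ratios of mean values.

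All 10 factors were named. Of each related list, the 4 genes with the widest range of region means among those passing the F test were named, and for each factor that passed, the 3 genes with the highest Pearson correlation, given without p. Adam23, Ntrk3, Neurod6, Kcnd2, Pou3f2 and Prelp were singled out of these, and Cacna2d1 added, after their values were seen. The factors and lists were chosen with earlier results of these data known. Alternatives were edgeR, DESeq2 1.42.0, a pseudocount of 0.25, no filter and another filter, no trend, a replicate block, region means weighted equally, the thresholds of the study and leaving out each sample. The limma F test and the limma comparisons of OB and of CX with the pooled other regions were first tried on simulated data. The remaining comparisons and the alternatives were not. In the files 2 symbols that had been turned into dates occur on several lines and were kept apart. Coordinates and exon lengths are from GENCODE. Python 3.11.15 with pandas 2.3.3, scipy 1.17.1 and matplotlib 3.10.9 was used for tables and plots.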

Additional observations from a re-analysis of the deposited data

How the results depend on the processing

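No difference of the 10 factors that was called, in limma as reported or under the alternative, changed its sign. Of all 1840 values under alternatives, 57 had the other sign, spread over 22 of the 100 differences, and each of these was called in neither. Thbs1 in BS against the pooled others was 0.68 in log2(value + 1) and -0.38 without BS replicate 3. For HC against BS it was 0.43, and -0.20 in edgeR, -0.26 in DESeq2 and -0.41 without BS replicate 2. Thbs3 in HC against the pooled others was 0.22, and -0.18 without HC replicate 1. Of the F tests of the 10 factors, 105 kept their side of the threshold with a sample left out, 3 gained it and 2 lost it, and under the other alternatives 68 kept it and 2 gained it. The number of factors differing among regions was 6, and 5 to 8 with a sample left out, the highest without BS replicate 2. Calls over pairs of regions numbered 22, and 20 to 28 with a sample left out.

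Against the pooled other regions, the count in the OB was 1. It was 2 in DESeq2, 0 without the trend, 0 with the replicate block, 4 with region means weighted equally and 0 to 1 with a sample left out. In the HC it was 0, and 2 with region means and 1 by the thresholds of the study. In the CX it was 0, and 1 in DESeq2, 4 with region means and 2 by those thresholds. In the BS it was 2, and 4 in DESeq2, 6 with region means, 4 by those thresholds and 1 to 3 with a sample left out, the lowest without BS replicate 3. Over all genes, DESeq2 called 93 in the HC and 128 in the CX, where limma called 0 and 2. DESeq2 called 1241 in the OB and 1156 in the BS, where limma called 636 and 752. Equal weighting of region means likewise raised every limma total, with BS reaching 1945, OB 1345, CX 576 and HC 281 of 13875. The higher counts of factors under that setting are therefore not particular to the factors.

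Without the trend, 0 family relatives, 7 receptors and partners, 4 other secreted factors and 2 heparan sulfate genes were called in place of 4, 12, 9 and 6. With no filter, 2 relatives and 5 other secreted factors were called. Over all genes, the F test called 2285 of 13875 as reported, 1552 of 13875 without the trend and 2112 of 18385 with no filter. With a sample left out the 4 lists gave 1 to 4, 8 to 14, 4 to 9 and 1 to 7 calls. The lowest counts came without OB replicate 1, OB replicate 3 or BS replicate 3 for the relatives, without OB replicate 3 for the receptors, without OB replicate 2 for the other secreted factors and without CX replicate 2 for the heparan sulfate genes. The causes were not tested.

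The replicate numbers pair nothing that the labels name, and deviations of same-numbered samples correlated at -0.16 to 0.25. With the replicate block, 7 factors differed among regions, with Gpc5 added (limma, adjusted p = 0.0409), and Gpc4 in the OB was no longer called. Leaving out a CX sample leaves 1, which is then assumed to vary like the other groups. Of the 10 factors, the values resting on 5 to 12 reads, those of Chrdl1 and Thbs4 in the BS, Thbs4 in the OB and Thbs2 in the CX, are limited by depth. Among the related genes, so are the low values of Hs3st2, Gpc3, Ndst4 and Ptx3.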
